A study of Mus musculus with 6 samples.

Results

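The 10 genes described here belong to the Hippo pathway and its transcriptional output: the coactivators Yap1 and Wwtr1 (which encodes TAZ), the DNA-binding partners Tead1, Tead2, Tead3 and Tead4, the kinase Lats2, the angiomotin-like genes Amotl1 and Amotl2, and the target gene Ankrd1. They were chosen by name, and were 10 of 35527 genes with summed reads. All 10 were among the 15805 genes with enough reads to be tested. RNA came from the whole pancreas of C57BL/6 mice aged 1 day. The KO group comprised 3 miR216a-/- mice and the WT group 3 wild-type mice, with 1 library per mouse. No other allele and no treatment is named for either group, and whether the deletion acts outside the pancreas is not stated in the labels. The comparison asks how these genes stood in the newborn pancreas when miR-216a was missing.

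In the Hippo pathway a kinase cascade, in which the MST kinases (Stk3, Stk4) with Sav1 activate the LATS kinases with Mob1a or Mob1b, phosphorylates YAP and TAZ. Phosphorylated YAP and TAZ stay in the cytoplasm, bound by adaptor proteins of the Ywha family, while the unphosphorylated proteins enter the nucleus and activate transcription together with TEAD factors. Angiomotins bind YAP at cell junctions and promote its phosphorylation. Several target genes, among them Lats2 and Amotl2, encode inhibitors of YAP and so close feedback loops. In the developing pancreas YAP is found in progenitors, ducts and mesenchyme, and its level falls as endocrine cells form.

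The sequence that the KO mice lack is shown with that of a neighbour of the same family, because it sets which mRNAs of the pathway could pair with it. Mature sequences are from RefSeq (GRCm38.p6). Capitals mark the seed, bases 2 to 8 counted from the 5′ end. miR-216a-5p lies at chr11:28757018-28757039 and miR-216b-5p at chr11:28746204-28746225, both on the plus strand.
miR-216a-5p: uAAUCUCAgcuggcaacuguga
miR-216b-5p: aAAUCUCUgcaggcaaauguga

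Sites that pair with the seed of miR-216a-5p were searched as TGAGATT, TGAGATTA and GAGATTA in the longest 3′ UTR among the transcripts annotated as protein-coding of each of the 10 genes. Transcripts annotated for nonsense-mediated decay, which give Lats2, Amotl2 and Ankrd1 longer 3′ UTRs, were not searched. In the 10 UTRs searched, Lats2 alone held a match, a TGAGATT that starts at base 35 of its 3′ UTR of 1626 bases. The site is shown with its flanks from the GENCODE M21 transcript (chr14:57691243-57691265, minus strand), with the match in capitals.
Lats2 site: ggaaacccaaaaTGAGATTtctt
Among tested genes, 17% had such a site in the 3′ UTR chosen the same way, and among tested genes with a 3′ UTR of 0.8 to 1.25 times the length of that of Lats2 the share was 17.4%. Tead1 and Amotl1 have long 3′ UTRs, of 8147 and 5826 bases, and held no match, while 67.5 and 54.8% of tested genes with 3′ UTRs of similar length did. A match is a string of letters and was not tested as a site of action.

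TEAD factors bind the core motif GGAATG, read CATTCC on the other strand. It was searched on both strands in RefSeq promoters (GRCm38.p6), from 250 bases before to 50 bases after each start. Entries existed for 8 of the 10 genes, the exceptions being Tead1 and Tead4. The motif stood in at least 1 promoter of 6 of those 8, namely Yap1, Wwtr1, Tead3, Lats2, Amotl2 and Ankrd1, and in none of Tead2 or Amotl1. Of all promoters of that length in the table, 14.7% held it, and of all genes 16.6% held it in at least 1 promoter. The 4 promoters below are printed because Amotl2, Lats2 and Ankrd1 are feedback or reporter genes of YAP, and because one Tead3 promoter held 3 matches. The other Tead3 promoters held 0 and 1 match, and the other Lats2 promoter 0. The most abundant Tead3 transcript, Tead3-206, begins at chr17:28350817, close to the start of the promoter with 1 match. Capitals mark the motif in either direction.
Amotl2 (chr9:102717554-102717853, plus strand): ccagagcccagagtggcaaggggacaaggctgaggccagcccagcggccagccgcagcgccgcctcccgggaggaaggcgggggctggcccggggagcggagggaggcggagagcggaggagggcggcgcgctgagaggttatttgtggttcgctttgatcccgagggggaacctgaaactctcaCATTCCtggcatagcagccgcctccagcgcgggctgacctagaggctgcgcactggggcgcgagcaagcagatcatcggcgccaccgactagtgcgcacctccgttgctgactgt
Ankrd1 (chr19:36119795-36120094, minus strand): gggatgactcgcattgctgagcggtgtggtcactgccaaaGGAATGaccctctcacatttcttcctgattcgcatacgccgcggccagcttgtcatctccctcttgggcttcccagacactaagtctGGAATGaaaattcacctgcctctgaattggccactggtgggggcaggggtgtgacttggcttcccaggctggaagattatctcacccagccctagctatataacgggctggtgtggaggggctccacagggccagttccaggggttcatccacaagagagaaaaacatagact
Lats2 (chr14:57746074-57746373, minus strand): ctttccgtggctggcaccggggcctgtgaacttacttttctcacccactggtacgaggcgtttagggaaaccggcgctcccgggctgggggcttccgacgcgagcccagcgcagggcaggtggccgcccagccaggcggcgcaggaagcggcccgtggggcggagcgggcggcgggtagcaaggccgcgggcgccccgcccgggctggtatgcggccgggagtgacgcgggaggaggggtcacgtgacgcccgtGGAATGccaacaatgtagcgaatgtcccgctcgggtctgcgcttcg
Tead3 (chr17:28350551-28350850, minus strand): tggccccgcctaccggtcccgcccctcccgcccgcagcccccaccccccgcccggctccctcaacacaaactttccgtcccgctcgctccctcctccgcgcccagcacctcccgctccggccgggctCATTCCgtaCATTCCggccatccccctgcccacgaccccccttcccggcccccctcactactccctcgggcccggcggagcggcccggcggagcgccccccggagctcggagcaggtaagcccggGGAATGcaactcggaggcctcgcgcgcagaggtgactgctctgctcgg
Positions are counted from the start used by each RefSeq promoter entry, which differs from the outer end of the gene given below. The match in the Amotl2 promoter began 65 bases before that start, and those of Ankrd1 210 and 123 bases before it. The first pair of Tead3 began 123 and 114 bases before it. Counting the start as base 1, the last Tead3 match began at base 3 and the Lats2 match at base 5. None of these matches was tested for binding.

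Libraries held 20565387 to 23028718 estimated reads, so that 9 of the 10 genes rested on 37 to 4075 reads per library and Ankrd1 on 4 to 31. Levels below are CPM, counts scaled to library size and composition by TMM, unless TPM is named. With edgeR's quasi-likelihood test 0 of the 10 genes passed an adjusted p of 0.05 between KO and WT, as did 0% of all genes tested, with a smallest adjusted p of 0.205 in the whole table. DESeq2, which called 2.65% of all genes, and limma-voom also called 0 of the 10. The log2 fold change of KO over WT was above 0 for all 10, as for 51.2% of tested genes, but for Yap1 it lay at 0.0034 and its sign changed with upper-quartile scaling. The median log2 fold change of the 10 was 0.22, beside 0.0069 over all genes tested. For 3 genes, Tead3, Tead4 and Amotl2, the lowest KO library exceeded the highest WT library, against 9.07% of tested genes, and for 0 the groups were apart in the other direction, against 10.3%. The unadjusted p was under 0.05 for 2 of the 10, Amotl2 and Tead4, both higher in KO, beside 5.62% of tested genes with such a p and a higher level in KO. That count was 1 without KO 1, WT 1, WT 2 or WT 3 and 4 without KO 2. Without KO 1, edgeR called 2.25% of all genes and still 0 of the 10. Since RNA of the whole organ was measured, fewer cells of a type and less RNA per cell cannot be told apart.

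The labelled tissue carried its markers: 11 acinar genes summed to 207210 to 258633 CPM in KO, against 158552 to 228546 CPM in WT, and 10 endocrine genes to 6350 to 7018 CPM in KO, against 7181 to 9205 CPM in WT. Of the acinar genes 7 had a log2 fold change above 0 and 4 below, and of the endocrine genes 5 and 5. Most of the endocrine sum was Ins1 and Ins2, which averaged 1700 and 2206 CPM in KO mice, against 2245 and 3027 CPM in WT mice. Smooth muscle genes summed to 102 to 118 CPM in KO and 104 to 129 CPM in WT, immune genes to 202 to 264 CPM in KO and 258 to 272 CPM in WT, and erythroid genes to 1691 to 4607 CPM in KO and 2669 to 5861 CPM in WT. A log2 fold change above 0 was found for 2 of 6 smooth muscle, 1 of 8 immune and 1 of 6 erythroid genes. Liver genes stood at 416 CPM in WT 1, against 12.3 to 29.2 CPM in the other 5 libraries, and without WT 1 again 0 of the 10 Hippo genes were called. The part of these lists in the results was not tested.

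**Figure D1:**
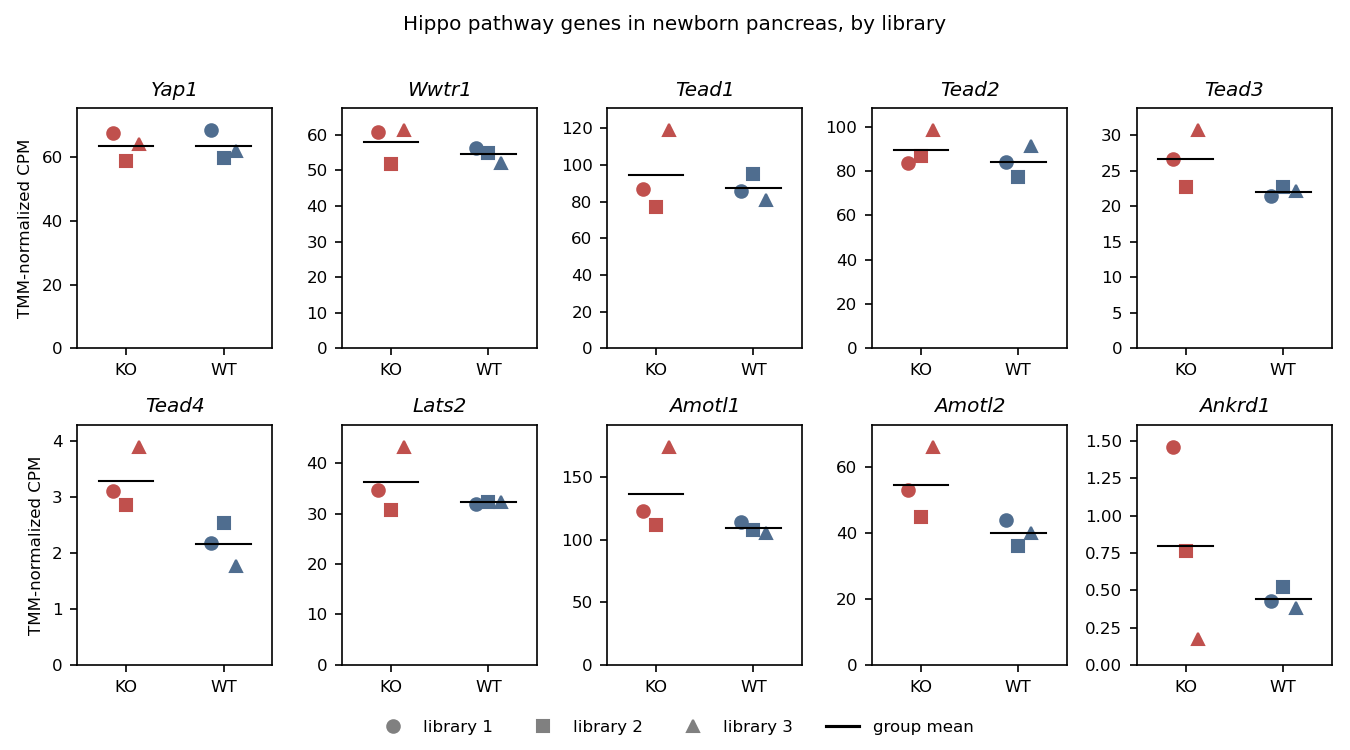
TMM-normalized CPM (vertical axes, each from 0) of the 10 genes in the 3 KO and 3 WT libraries; circles, squares and triangles are libraries 1, 2 and 3 of a group and bars are group means. KO and WT do not overlap for Tead3, Tead4 and Amotl2, while Yap1 averages 63.6 CPM in KO mice, against 63.4 CPM in WT mice.

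Among the coactivators, Yap1 stood at 67.6, 58.7 and 64.3 CPM in KO mice, against 68.5, 59.9 and 61.9 CPM in WT mice. The groups overlapped over nearly their whole range, with means of 63.6 ± 4.47 CPM in KO and 63.4 ± 4.49 CPM in WT mice (SD, n = 3; log2 fold change 0.0034 ± 0.096 SE, edgeR adjusted p = 0.991). Yap1 lies on chromosome 9 from 7931999 to 8004596 on the minus strand (GRCm38, as for all genes below). Wwtr1, on chromosome 3 from 57455649 to 57575910, had 60.8, 51.7 and 61.3 CPM in KO mice, against 56.4, 54.95 and 52.2 CPM in WT mice. KO 2 lay below all 3 WT libraries and the other 2 KO libraries above them (log2 fold change 0.09 ± 0.10 SE, adjusted p = 0.762).

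The 4 TEAD genes encode factors with a shared DNA-binding domain, and all depend on a coactivator to activate transcription. Tead1 (chromosome 7, 112679318 to 112906807) stood at 87.0, 76.9 and 119 CPM in KO mice, against 85.6, 94.8 and 81.1 CPM in WT mice. KO 3 was the highest and KO 2 the lowest of the 6 libraries, and the log2 fold change of 0.11 ± 0.16 SE (adjusted p = 0.819) was -0.09 without KO 3. Tead2 (chromosome 7, 45215753 to 45233644) stood at 83.7, 86.9 and 98.4 CPM in KO mice, against 84.3, 77.2 and 91.6 CPM in WT mice. The groups overlapped over most of their range (log2 fold change 0.09 ± 0.10 SE, adjusted p = 0.769).

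Tead3 (chromosome 17, 28331671 to 28350817) had 26.7, 22.7 and 30.7 CPM in KO mice, against 21.4, 22.6 and 22.1 CPM in WT mice. The groups were set apart only by the small step between KO 2 and WT 2, at 22.67 and 22.65 CPM, while KO 1 and KO 3 stood well clear (log2 fold change 0.28 ± 0.13 SE, adjusted p = 0.423). Tead4 (chromosome 6, 128224288 to 128300823) was the scarcest TEAD gene, at 3.11, 2.85 and 3.89 CPM in KO mice, against 2.18, 2.53 and 1.76 CPM in WT mice. All 3 KO libraries were above all 3 WT libraries, on 56 to 91 reads in KO and 37 to 63 reads in WT (log2 fold change 0.61 ± 0.25 SE, adjusted p = 0.366).

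Lats2, the kinase that marks YAP and TAZ for retention in the cytoplasm and the gene with the seed match, stood at 34.7, 30.7 and 43.2 CPM in KO mice, against 32.0, 32.3 and 32.3 CPM in WT mice (chromosome 14, 57689662 to 57758388). The WT libraries were nearly level, and the KO libraries lay on both sides of them (log2 fold change 0.17 ± 0.13 SE, adjusted p = 0.644). An annotated gene on the same strand, Gm49361, shares 2955 exonic bases with Lats2 but was listed at 0 to 0.160 CPM. Lats1, the relative of Lats2, stood at 67.0, 70.4 and 82.4 CPM in KO mice, against 55.4, 62.7 and 65.8 CPM in WT mice, without overlap (log2 fold change 0.26 ± 0.11 SE, adjusted p = 0.395).

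In the list of 17 other genes of the kinase module, 11 had a log2 fold change above 0 and 6 below, with 0 called in either direction and a median of 0.05. An unadjusted p under 0.05 was found for 3, all higher in KO, and for 0 lower, beside 5.62 and 7% of tested genes. Mink1, a kinase of the MAP4K group, which acts on LATS in parallel to the MST kinases, had 64.4, 65.9 and 67.0 CPM in KO mice, against 55.4, 53.8 and 54.5 CPM in WT mice (log2 fold change 0.27 ± 0.08 SE, adjusted p = 0.251). Map4k3, of the same group, stood at 58.2 ± 1.45 CPM in KO mice, against 49.5 ± 1.30 CPM in WT mice (SD, n = 3, adjusted p = 0.287). Lats1, described above, was the third. Nf2, which encodes merlin, a membrane-linked activator of the cascade, stood at 64.8 ± 0.367 CPM in KO mice, against 68.8 ± 4.10 CPM in WT mice (adjusted p = 0.716), all 3 KO libraries being lower than any WT library. It was the 1 gene of the 17 set apart in that direction, beside 10.3% of tested genes. In 5 of the 17, Sav1, Lats1, Map4k3, Map4k5 and Mink1, the lowest KO value exceeded the highest WT value, beside 9.07%.

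The angiomotins tether YAP at junctions. Amotl2 (chromosome 9, 102716672 to 102733418) had the smallest p of the 10 genes. It stood at 53.1, 44.8 and 66.2 CPM in KO mice, against 44.1, 36.0 and 39.9 CPM in WT mice, and all KO libraries lay above all WT libraries, though KO 2 was less than 1 CPM above WT 1. The means of 54.7 ± 10.8 CPM in KO and 40.0 ± 4.02 CPM in WT mice gave a ratio of 1.37 (SD, n = 3; log2 fold change 0.45 ± 0.15 SE, adjusted p = 0.284). Amotl1 (chromosome 9, 14541966 to 14645056) stood at 123, 112 and 174 CPM in KO mice, against 114, 108 and 106 CPM in WT mice. KO 3 stood far above the other 5 libraries, and KO 2 lay between the WT libraries (log2 fold change 0.32 ± 0.16 SE, adjusted p = 0.465, and 0.105 without KO 3). Amot, the founding member of the family, stood at 17.6 ± 1.09 CPM in KO mice, against 17.8 ± 1.55 CPM in WT mice (SD, n = 3, log2 fold change -0.01 ± 0.12 SE, adjusted p = 0.975).

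Among 20 upstream regulators and junction proteins, 14 had a log2 fold change above 0 and 6 below, with 0 called and a median of 0.06. Ptpn14, a phosphatase that binds YAP and holds it back, was the 1 gene with an unadjusted p under 0.05, beside 12.6% of tested genes, at 73.9, 65.5 and 69.4 CPM in KO mice, against 60.6, 57.3 and 51.9 CPM in WT mice (log2 fold change 0.30 ± 0.10 SE, adjusted p = 0.268). Limd1, a LIM-domain protein that restrains LATS, stood at 73.2 ± 3.98 CPM in KO mice, against 65.2 ± 4.30 CPM in WT mice, and the junction scaffold Magi1 at 43.3 ± 1.03 CPM in KO mice, against 49.0 ± 4.58 CPM in WT mice (SD, n = 3; adjusted p = 0.497 and 0.5002).

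**Figure D2:**
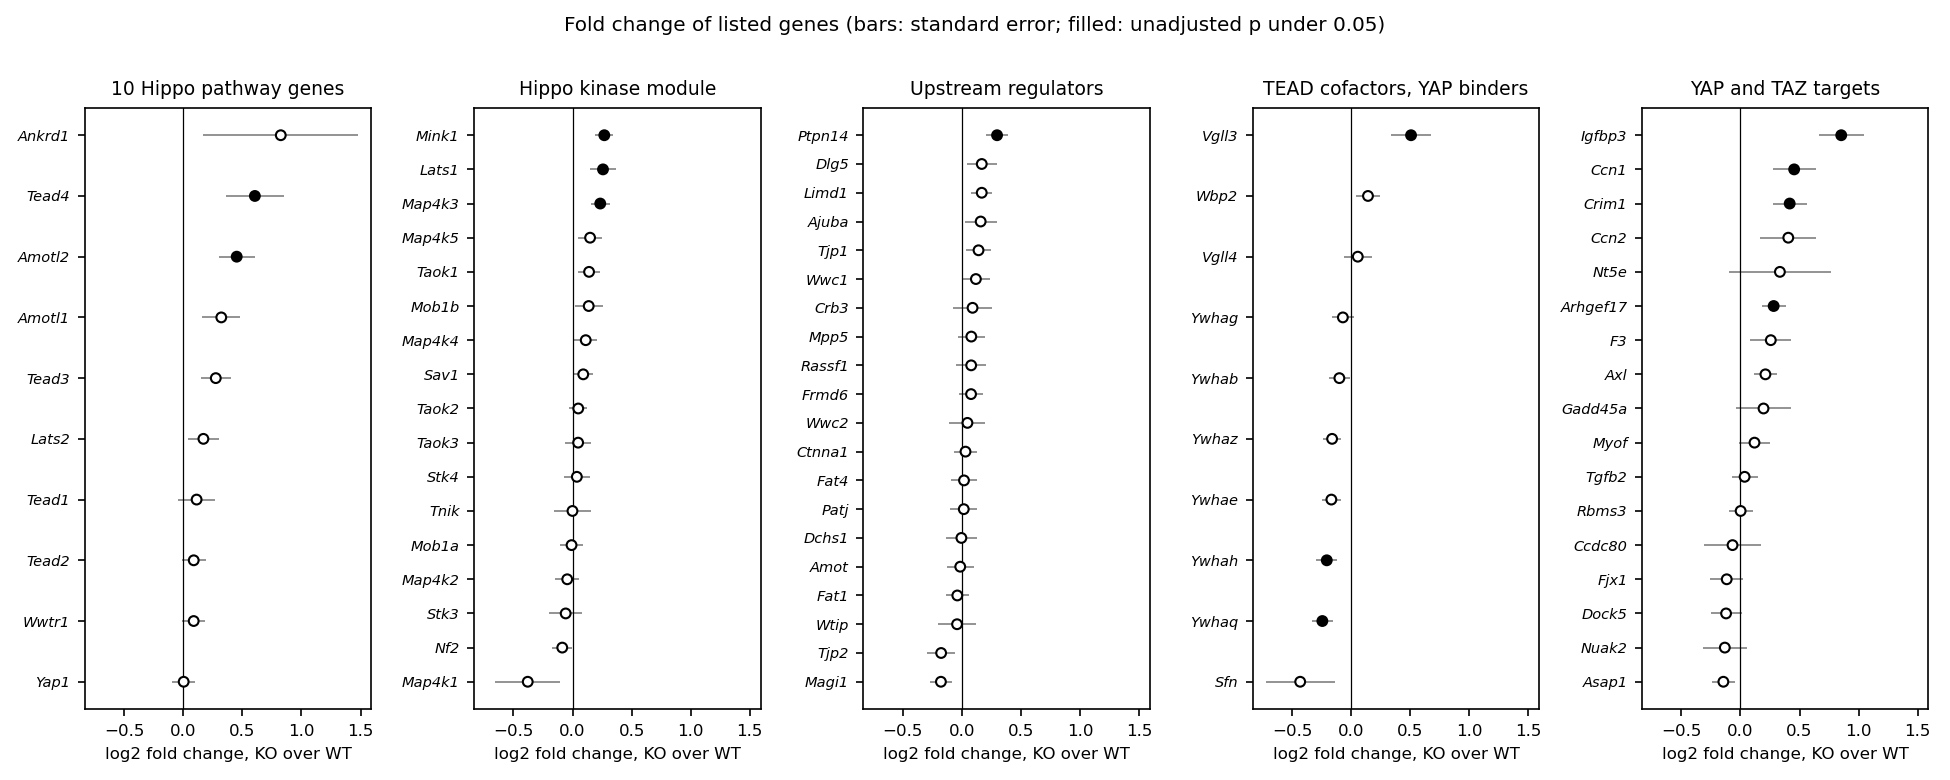
Log2 fold change of KO over WT (horizontal axis) with its standard error for the 10 genes and for 4 lists of other pathway genes that passed the count filter; filled points have an unadjusted p under 0.05 and no gene shown passed the adjusted threshold. Ankrd1 has the widest error, Yap1 lies at 0.0034, and Igfbp3 among the targets lies at 0.85.

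Ankrd1, a gene of striated muscle that YAP and TEAD also switch on in other cells, was close to the limit of detection. It had 1.46, 0.762 and 0.171 CPM in KO mice, against 0.426, 0.521 and 0.380 CPM in WT mice, from 31, 15 and 4 reads in KO and 9, 13 and 8 reads in WT. KO 1 was the highest and KO 3 the lowest of all 6 libraries, so the log2 fold change of 0.82 ± 0.66 SE (adjusted p = 0.658) was 0.04 without KO 1 and 1.32 without KO 3. Ankrd1 lies on chromosome 19 from 36111961 to 36120099. Of 10 striated muscle markers, Nppa was at 0 in every library, and the summed level of the list was 1.73 to 3.72 CPM in KO mice, against 2.56 to 6.53 CPM in WT mice. The part of muscle tissue in the Ankrd1 values was not tested.

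Of 18 other YAP and TAZ target genes, 17 were tested. Of these, 12 had a log2 fold change above 0, beside 51.2% of tested genes, and 5 below, with 0 called and a median of 0.20. An unadjusted p under 0.05 was found for 4 of the 17, Igfbp3, Crim1, Arhgef17 and Ccn1, all higher in KO, and for 0 lower, beside 5.62% of tested genes higher and 7% lower. Ccn1 and Ccn2, secreted matrix proteins and the usual readouts of YAP, were low: Ccn1 stood at 19.1, 14.0 and 15.7 CPM in KO mice, against 14.5, 9.82 and 11.3 CPM in WT mice. WT 1 lay within the KO range (log2 fold change 0.45 ± 0.18 SE, adjusted p = 0.361). Ccn2 stood at 14.3, 8.69 and 13.7 CPM in KO mice, against 10.8, 6.97 and 10.02 CPM in WT mice, with WT 1 and WT 3 inside the KO range (log2 fold change 0.40 ± 0.24 SE, adjusted p = 0.532).

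Igfbp3, which encodes a binding protein for insulin-like growth factors, had 138, 227 and 233 CPM in KO mice, against 119, 112 and 99.8 CPM in WT mice. The groups did not overlap, and KO 1 was much nearer to WT than KO 2 and KO 3 were (log2 fold change 0.85 ± 0.19 SE, adjusted p = 0.206). DESeq2 called this gene, and so did edgeR without KO 1; it was the 1 pathway gene called in either. Crim1, a membrane protein that binds growth factors, stood at 36.6 ± 5.11 CPM in KO mice, against 27.4 ± 3.86 CPM in WT mice, and Arhgef17 at 95.3 ± 9.22 CPM in KO mice, against 78.4 ± 5.31 CPM in WT mice (SD, n = 3; adjusted p = 0.295 and 0.311). Summed over the 18 targets, the level was 882 to 1039 CPM in KO mice, against 767 to 865 CPM in WT mice. Without Igfbp3, a sum chosen after the values were seen, the other 17 stood at 808, 655 and 807 CPM in KO mice, against 702, 753 and 667 CPM in WT mice, so that the groups overlapped and KO 2 was the lowest of the 6 libraries. That rank of KO 2 turned on Ccdc80 and does not describe the targets as a whole. Ccdc80 stood at 199, 108 and 224 CPM in KO mice, against 184, 200 and 172 CPM in WT mice. Of 10 endothelial markers 9 had a log2 fold change above 0, beside 51.2% of tested genes, and 0 were called. The edgeR unadjusted p was under 0.05 for 4 of them, all higher in KO, beside 5.62% of tested genes. For 3 all KO libraries lay above all WT libraries, beside 9.07%. Summed, the endothelial markers stood at 710 to 743 CPM in KO mice, against 605 to 700 CPM in WT mice. Their part in the target values was not tested.

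Cofactors of TEAD and binding proteins of YAP set how much of the coactivator reaches DNA. Of 10 tested genes of a list of 12, 3 had a log2 fold change above 0 and 7 below, with 0 called and a median of -0.13. An unadjusted p under 0.05 was found for 1 higher in KO and 2 lower, beside 5.62 and 7% of tested genes. For 4 of the 10, Ywhae, Ywhah, Ywhaq and Ywhaz, all KO libraries lay below all WT libraries, beside 10.3% of tested genes, and for 1, Vgll3, all lay above, beside 9.07%. All 7 genes below 0 were Ywha genes or Sfn, while Vgll3, Vgll4 and Wbp2 were above 0. Summed over the 12 genes, the level was 960 to 1026 CPM in KO mice, against 1081 to 1096 CPM in WT mice, without overlap. Ywha genes held most of that sum, Ywhae alone averaging 236 CPM in KO mice, against 265 CPM in WT mice. The sum therefore does not describe the TEAD cofactors of the list. Vgll1 and Vgll2, coactivators that compete with YAP for TEAD, did not pass the count filter, and Vgll2 was at 0 in every library. Vgll3, of the same family, stood at 10.8, 13.6 and 15.4 CPM in KO mice, against 10.1, 9.70 and 8.16 CPM in WT mice (log2 fold change 0.51 ± 0.17 SE, adjusted p = 0.284). Ywhaq and Ywhah, of the adaptor family that retains YAP and TAZ in the cytoplasm but binds many other proteins too, stood at 165 ± 10.2 CPM in KO mice, against 195 ± 12.5 CPM in WT mice, and at 85.3 ± 6.93 CPM in KO mice, against 98.3 ± 3.47 CPM in WT mice (SD, n = 3; adjusted p = 0.323 and 0.393).

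The KO libraries differed among themselves. KO 3 was the highest of the 6 libraries for 8 of the 10 genes, the exceptions being Yap1 and Ankrd1, while 24.2% of tested genes were highest there. KO 2 was the lowest KO library for 8 of 10, the exceptions being Tead2 and Ankrd1, against 32.5% of tested genes. Relative to the WT mean on the log2 scale, Amotl2 lay at 0.41 in KO 1, 0.16 in KO 2 and 0.73 in KO 3, Amotl1 at 0.17, 0.03 and 0.68, and Lats2 at 0.11, -0.07 and 0.42. These libraries also differed in the sums of marker lists. Of 10 mesenchymal markers, 3 were above 0 and 7 below, and their summed level was 10699, 6858 and 10994 CPM in KO 1, KO 2 and KO 3, against 10763 to 13074 CPM in WT mice. Most of that sum was Col1a1, Col1a2 and Col3a1, at 1123, 1230 and 2935 CPM in KO 2. For 2 of the 10, Pdgfra and Pdgfrb, all KO libraries lay above all WT libraries, beside 9.07% of tested genes. For 2, Col1a1 and Lum, all lay below, beside 10.3%. The sum therefore does not describe all mesenchymal markers of the list. The 6 mesothelial markers, 3 above 0 and 3 below, summed to 323, 179 and 278 CPM in KO 1, KO 2 and KO 3 and to 199 to 367 CPM in WT mice. Cell cycle genes, of which 13 of 13 were below 0, summed to 726, 445 and 270 CPM in KO 1, KO 2 and KO 3, against 957 to 1201 CPM in WT mice. The 10 ductal markers, 7 above 0 and 3 below, gave 697 to 813 CPM in KO mice, against 730 to 850 CPM in WT mice. The largest part of that sum was Spp1, at 305 to 392 CPM in KO mice, against 350 to 458 CPM in WT mice. No gene of these 4 lists was at 0 in all libraries. Their part in the Hippo values was not tested.

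**Figure D3:**
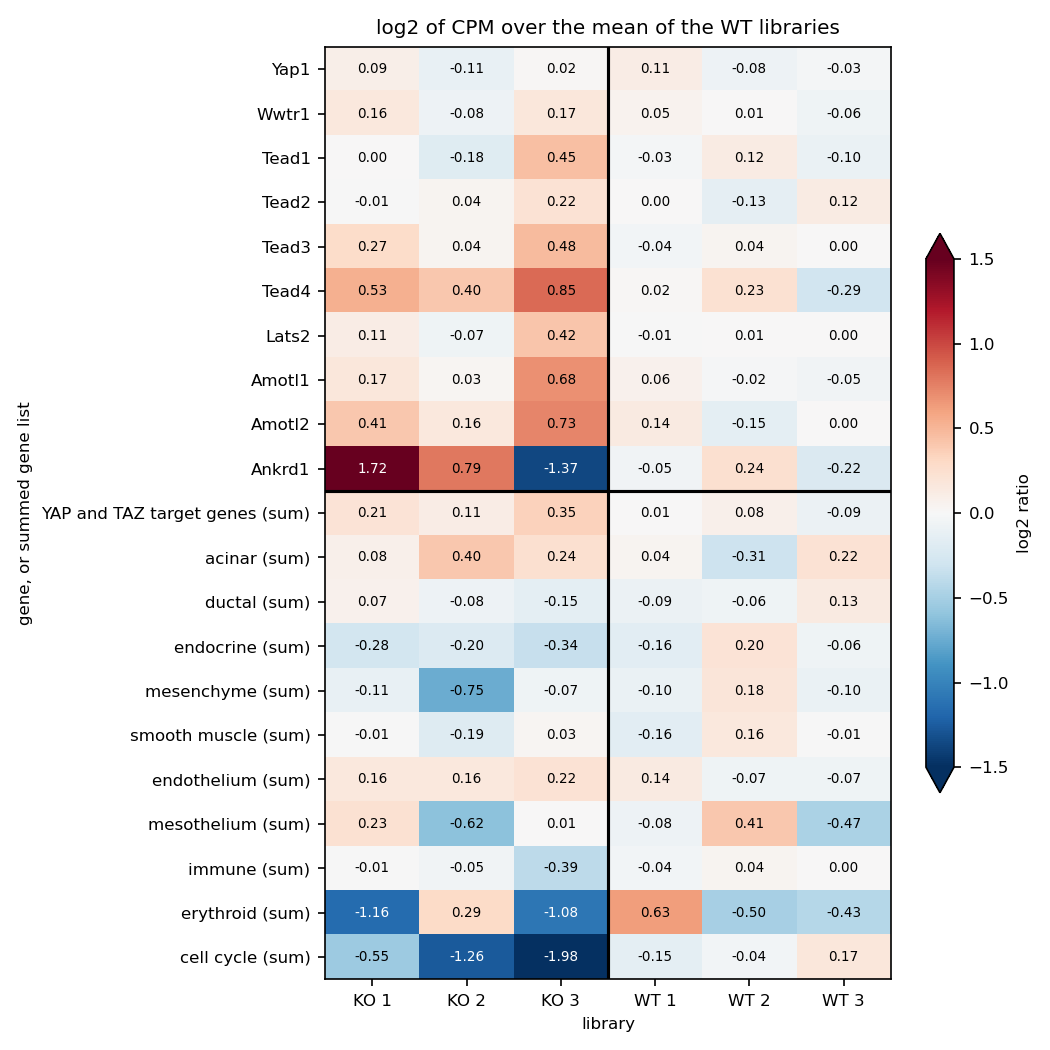
Log2 ratio of CPM to the mean of the WT libraries in each library (columns, KO left of the line). Rows are the 10 genes and, below the horizontal line, summed CPM of YAP and TAZ targets, cell type markers and cell cycle genes. KO 3 carries the highest value for 8 of the 10 genes, and KO 2 is lowest for the mesenchymal (-0.75) and mesothelial (-0.62) sums. Most of the mesenchymal sum is Col1a1, Col1a2 and Col3a1.

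Levels of different genes can be compared only per transcript length, in TPM, which the authors' tables give and which were summed per gene. Tead2 stood highest by far, at 78.7 ± 11.2 TPM in KO and 74.7 ± 6.43 TPM in WT (SD, n = 3), and its lowest library, at 67.4 TPM, was above every library of the other 9 genes. Next came Yap1, at 21.3 ± 2.96 TPM in KO and 21.2 ± 1.94 TPM in WT, followed by Amotl1, Wwtr1, Amotl2, Tead1, Tead3 and Lats2, whose ranges over the 6 libraries each overlapped that of the next. Lats2, at 7.79 to 13.03 TPM over both groups, was clear of Tead4, at 0.811 to 2.22 TPM, and the range of Tead4 met that of Ankrd1, at 0.131 to 1.00 TPM. The order is a description over 6 libraries and was not tested.

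**Figure D4:**
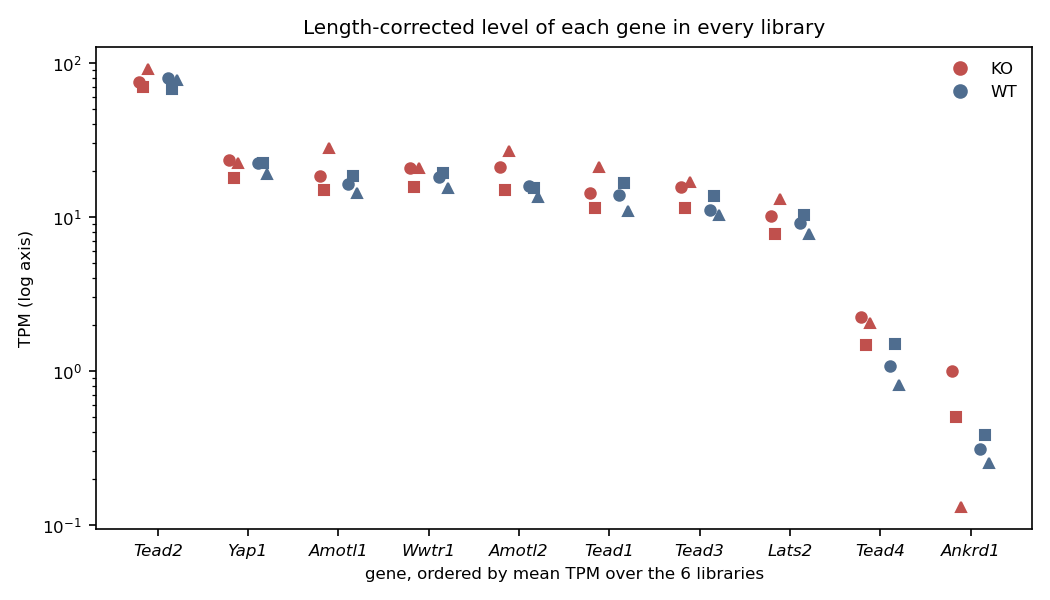
TPM (log axis) of the 10 genes in each KO and WT library, ordered by mean; circles, squares and triangles are libraries 1, 2 and 3 of a group. Tead2 lies above all other genes and Tead4 and Ankrd1 below them in every library.

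Of the summed TPM of the 4 TEAD genes, Tead2 held 69.9, 74.2 and 69.5% in KO and 75.3, 67.8 and 77.9% in WT. Tead1 held 12.2 to 16.0% in KO and 10.98 to 16.8% in WT, Tead3 12.1 to 14.6% in KO and 10.3 to 13.8% in WT, and Tead4 1.56 to 2.08% in KO and 0.816 to 1.502% in WT. The Tead4 share was the only 1 of the 4 whose groups did not overlap. The TEAD sum was 2.42 to 3.03 times that of Yap1 and Wwtr1 in KO and 2.40 to 2.90 times in WT. Yap1 was 1.13, 1.15 and 1.08 times as high as Wwtr1 in KO and 1.239, 1.16 and 1.23 times in WT, on the TPM scale, so the 2 coactivators stood near parity with every KO ratio below every WT ratio. Lats2 had 0.628 to 0.786 times the TPM of Lats1 in KO and 0.671 to 0.878 times in WT. These ratios were formed from summed TPM and given no p.

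Below the gene level, the split between annotated transcripts could be compared for 7 of the 10 genes, in which at least 2 transcripts each held 10% of the reads. The share of the most abundant transcript was tested for each with an exact permutation test over the libraries, which cannot go below p = 0.1 with 3 against 3. Amotl2-201, with a coding part of 2319 bases in 10 exons, took 45.7, 57.8 and 59.8% of Amotl2 reads in KO and 43.3, 23.9 and 40.2% in WT, without overlap (mean difference 18.6 percentage points, two-sided exact p = 0.1, adjusted p = 0.35 over 7 genes). In CPM, Amotl2-201 stood at 24.3, 25.9 and 39.5 in KO and 19.1, 8.62 and 16.1 in WT. By contrast, Amotl2-203, annotated without a 5′ UTR, stood at 12.3, 11.2 and 9.86 CPM in KO mice, against 13.3, 9.58 and 13.6 CPM in WT mice, and Amotl2-207, annotated for nonsense-mediated decay, at 9.72, 0 and 12.2 CPM in KO mice, against 9.60, 15.0 and 8.32 CPM in WT mice.

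Tead2 was the other gene whose groups separated. Tead2-201 took 66.4, 60.2 and 65.5% of its reads in KO and 68.4, 74.3 and 68.1% in WT (mean difference -6.22 percentage points, two-sided exact p = 0.1, adjusted p = 0.35 over 7 genes). Tead2-203 has the same coding length, 1338 bases, but a 5′ UTR of 1367 bases against 86 bases in Tead2-201. It stood at 22.2, 27.6 and 26.6 CPM in KO mice, against 19.9, 16.0 and 17.9 CPM in WT mice, all KO libraries being above all WT libraries, whereas Tead2-201 overlapped between the groups, at 52.3 to 64.5 CPM in KO mice, against 57.3 to 62.4 CPM in WT mice. As shares of TPM in place of reads, the Tead2-201 values overlapped too, at 43.4 to 49.0% in KO and 43.9 to 58.0% in WT.

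The other 5 genes showed no separation (exact p = 0.5 to 1). For Ankrd1, with 4 to 31 reads per library, the reads were too few to compare its transcripts. Ankrd1-205 took 94.6, 0 and 0% of them in KO and 0, 59.9 and 0% in WT. Tead4 rested on 37 to 91 reads per library. Yap1-202, with a coding length of 1419 bases, and Yap1-201, with 1467 bases and 1 more exon, varied in share within both groups: Yap1-202 took 69.0, 52.0 and 68.2% of Yap1 reads in KO and 63.6, 67.5 and 49.7% in WT. Tead1-202 took 46.1 to 61.3% of Tead1 reads in KO and 47.5 to 68.3% in WT. Salmon divides reads shared by transcripts of a gene by estimation, and no error of that division was available, so single transcript values are uncertain.

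**Figure D5:**
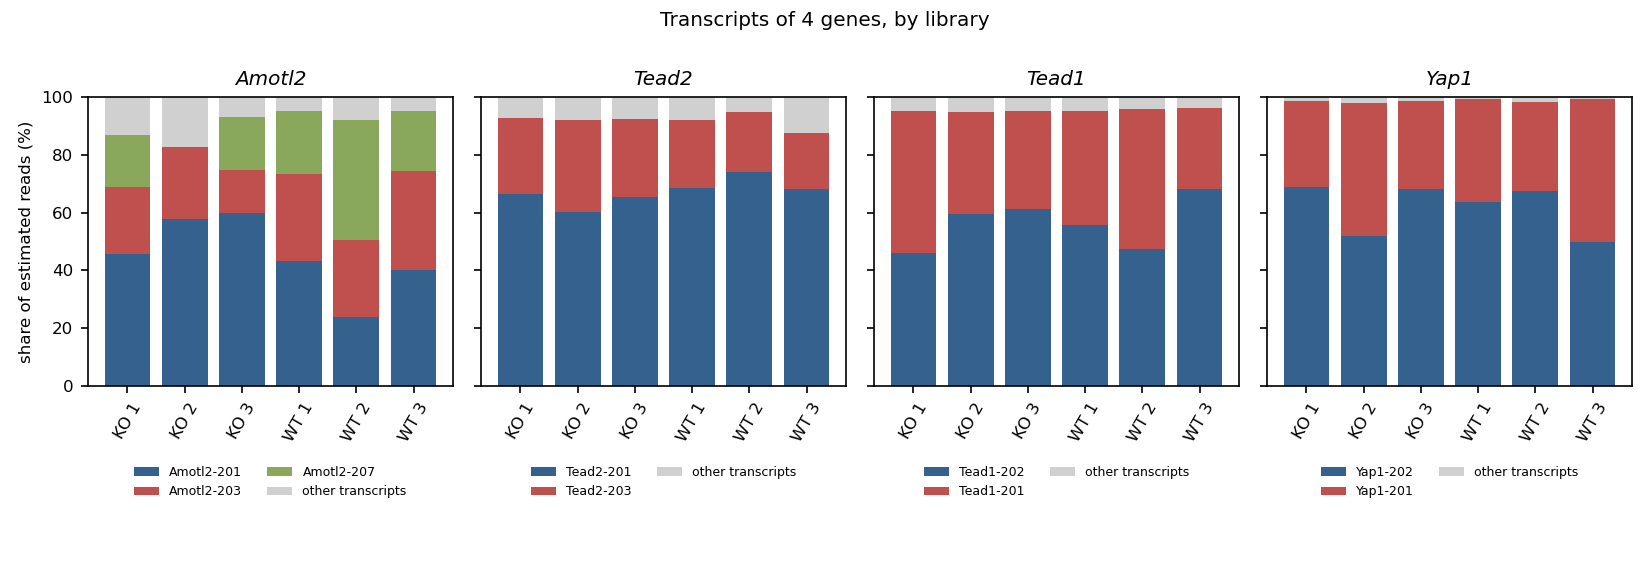
Share of a gene's estimated reads (percent, vertical axis) assigned to each transcript that held at least 10% of its reads over all libraries, for Amotl2, Tead2, Tead1 and Yap1 in the 3 KO and 3 WT libraries. The blue Amotl2-201 segment is larger in every KO library (45.7 to 59.8%) than in any WT library (23.9 to 43.3%), while Yap1 and Tead1 vary by library within both groups.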

How the data were processed

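RNA of whole pancreas was sequenced from 3 KO and 3 WT mice with a stranded mRNA kit, per the labels' protocols. Groups were taken from the genotype label. Replicate numbers follow sample order only and pair no samples. Sex, litter and batch are not named in the labels. For the transcript set behind Salmon, the release was not given in the sources used here. The submitters' processing notes name bcl2fastq, Salmon 0.13.1, DESeq2 1.24.0 and the build mm10.

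The authors deposited, per library, Salmon's estimated counts and TPM for 116248 transcripts, without pooling. Their deposited table of 17324 genes holds a scaled signal (0.566 to 0.791% of its values are whole) and entered 1 alternative only. Transcripts were matched to GENCODE M21 by versioned identifier (115995 matched; the rest held 0.0341 to 0.0458% of reads), then added up within each of 35527 genes and rounded (Python 3.11.15, pandas 2.3.3). Genes were tested with edgeR 4.0.16 in R 4.3.3 (quasi-likelihood, TMM, filterByExpr, Benjamini-Hochberg over 15805 genes, threshold 0.05). The SE of a log2 fold change was derived from the F statistic. The biological coefficient of variation was 18.4%. Alternatives were other scalings, filters, DESeq2 1.42.0, limma 3.58.1 (voom), a length offset, the authors' table on log2(value + 1), and leaving out libraries. Methods were tested on simulated data.

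The 10 genes, the lists and the rule for named genes (the 3 smallest p per list, plus Ccn1, Ccn2, Lats1, Nf2 and Amot) were chosen with earlier results of these data known. Transcripts other than the most abundant one were chosen after the values were seen. That each library is a separate mouse rests on the labels. Loss of miR-216a itself was not analysed here, so genotype likewise rests on the labels.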

Additional observations from a re-analysis of the deposited data

How the results depend on the processing

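No paired analysis was possible because replicate numbers follow sample order and the labels give no shared litter, batch or day. Of the 10 genes, 0 were called under any of the 15 alternatives, and adjusted p ranged from 0.144 to 0.999. Over all genes, where edgeR called 0, DESeq2 called 419, limma-voom 2, edgeR with no filter 1, and edgeR without WT 1 and KO 2 again 2; leaving out single libraries gave 0 to 362, the most without KO 1. Among the 4 pathway lists, where edgeR called 0 genes, DESeq2 called 1 (Igfbp3), and leaving out single libraries gave 0 to 1. The count of the 10 genes with an unadjusted p under 0.05 was 2, 1 with DESeq2 and 1 to 4 when single libraries were left out; this and the next count were chosen after seeing the data. Between 8 and 10 of the 10 genes had a log2 fold change above 0. The Yap1 value changed sign with upper-quartile scaling (-0.020), no filter (-0.00022), the length offset (-0.021) and the authors' scaled table (-0.021), and ranged from -0.043 to 0.062 as single libraries were left out. Tead1 ranged from -0.089 to 0.24, with the lowest value without KO 3. Wwtr1, Tead2, Tead3, Tead4, Lats2, Amotl1, Amotl2 and Ankrd1 kept their sign in every alternative that gave a value. Ankrd1 had no adjusted p in DESeq2 and was removed by the filter of 1 CPM in 3 libraries. In percentage points, the difference in share without single libraries ranged from -2.44 to 8.35 for Yap1-202, from -6.43 to 3.98 for Tead1-202, from -5.22 to 5.36 for Tead3-206, from -19.98 to 31.5 for Ankrd1-205, from -7.39 to -4.22 for Tead2-201 and from 12.6 to 22.96 for Amotl2-201. The cause of these changes was not tested. Depth limits Ankrd1 and Tead4 most.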

Other observations

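Transcripts annotated as retained introns stood higher in KO for several of these genes, a pattern chosen after the values were seen. Of the 8 such transcripts of the 10 genes with a mean of at least 0.5 CPM, 4 had every KO library above every WT library and 0 had every KO library below. Amotl2-206 stood at 2.52, 1.87 and 3.46 CPM in KO and 1.09, 0.790 and 1.12 CPM in WT. Yap1-208 stood at 0.794, 1.03 and 0.818 CPM in KO and 0.327, 0.535 and 0.230 CPM in WT, while Yap1 as a gene was level. Tead1-215 stood at 3.41, 2.97 and 3.17 CPM in KO and 2.54, 2.40 and 2.43 CPM in WT, and Tead3-209 at 0.972, 1.63 and 1.74 CPM in KO and 0.710, 0.921 and 0.909 CPM in WT. The others overlapped between the groups. Amotl1-203 and Tead2-215 averaged lower in KO, at 0.508 and 1.33 CPM, against 0.710 and 1.86 CPM in WT. Tead3-202 and Tead3-203 averaged higher in KO, at 6.01 and 1.25 CPM, against 5.21 and 1.06 CPM in WT.

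The same tilt was present in all genes: of 9387 retained-intron transcripts at that level, 11.7% had every KO library above every WT library and 4.21% had every KO library below, with a median log2 ratio of 0.15. Among 26054 protein-coding transcripts these shares were 6.69 and 8.15%, with a median of -0.0030. Both medians are on log2 of mean CPM plus 0.1. The higher retained-intron values are not particular to the Hippo genes, and no p is given, since transcripts of a library are not replicates.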
